A study of Mus musculus with 8 samples.

Results

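The expression of 10 genes that encode the enzymes and core subunits of Polycomb repressive complex 2 (PRC2) and of the DNA methylation machinery was compared between gastric cancers and normal tissue of the mouse squamous-columnar junction (SCJ), the border between the squamous forestomach and the glandular stomach. The genes were taken by symbol from a table of 23361 genes and were Ezh2, Ezh1, Eed, Suz12, Dnmt1, Dnmt3a, Dnmt3b, Uhrf1, Hells and Tet1. RNA sequencing covered 5 cancers of the SCJ and 3 control tissues. The cancers carry the label Trp53-/-Rb1-/-. They arose in mice with the knock-in allele Lgr5 eGFP-Ires-CreERT2, loxP/loxP alleles of both Trp53 and Rb1 and the Ai9 tdTomato reporter, which received tamoxifen as young adults and were examined many months later. The Cre enzyme was driven by the Lgr5 gene, and the border of each tumor was drawn by tdTomato. The control tissue came from wild type mice of paired age, whose SCJ was separated from the forestomach and the antrum. The study's methods give control mice of the tumor induction experiments the same tamoxifen, without naming the wild type mice used for RNA. Every library was made from bulk tissue, in which fewer cells of a type and less RNA per cell cannot be told apart. The controls were separate stomachs, whereas nothing states that each cancer came from a separate animal, so p-values measure the spread between these samples.

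PRC2 places the repressive mark H3K27 methylation on histone H3. Its catalytic subunit is Ezh2 in dividing cells and Ezh1 mainly in resting cells, and Eed and Suz12 hold either enzyme in an active complex. DNA methylation at CpG sites is copied after replication by Dnmt1, which Uhrf1 recruits to hemimethylated DNA, and is set anew by Dnmt3a and Dnmt3b. Hells (also called LSH) is a chromatin remodeler needed for methylation of repeats, and Tet1 oxidizes methylcytosine, the first step of its removal. Many of these genes are known targets of E2F transcription factors, which Rb1 restrains, and this is why the E2F words in their promoters are shown here.

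The promoters of the 10 genes were searched, on both strands, for the 4 words TTTCCCGC, TTTCGCGC, TTTGCCGC and TTTGGCGC, which spell the E2F consensus. The search covered the 250 bases upstream of each start site that RefSeq lists (GRCm38.p6), 15 windows in all. A word was found in 4 of the 10 genes, Suz12, Dnmt1, Uhrf1 and Hells, against 2.16% of the 27025 genes with a window. No member window held overlapping words. The stretches are printed on the strand of the gene, 5′ to 3′, with the word in capitals.
Dnmt1, 219 bases upstream of the start at 20952623, chr9:20952824-20952853, minus strand, a match on the reverse strand: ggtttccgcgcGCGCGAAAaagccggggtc
Uhrf1, 185 bases upstream of the start at 56304313, chr17:56304102-56304161, plus strand: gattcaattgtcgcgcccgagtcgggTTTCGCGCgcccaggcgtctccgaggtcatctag
Hells, 62 bases upstream of the start at 38930990, chr19:38930917-38930946, plus strand: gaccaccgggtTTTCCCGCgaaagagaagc
Suz12, 219 bases upstream of the start at 79993106, chr11:79992861-79992920, plus strand: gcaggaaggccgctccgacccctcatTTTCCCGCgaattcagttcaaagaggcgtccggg
Dnmt1 and Uhrf1 shared 1 word, and Hells and Suz12 shared another. In the GENCODE annotation the Suz12 stretch lay in no transcript and the Uhrf1 stretch in an intron of 2 transcripts that start farther upstream. The Dnmt1 stretch overlapped an exon of 2 Dnmt1 transcripts that start farther upstream, and the Hells stretch overlapped the exon of 1 Hells transcript. The windows also differed in CpG content, from 2 CpG at the upstream start of Dnmt1 to 26 at the Dnmt1 start shown here, with 23 for Ezh2, 37 for Suz12 and 40 at 1 start of Dnmt3a. These matches describe letters, and binding was not measured.

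The deposited values are FPKM (fragments per kilobase, scaled to the mapped fragments, a level corrected for transcript length), rounded to whole numbers. Depth is unknown, since such values hold no read numbers. The FPKM summed to between 403569 and 573858 in the cancers and to between 887141 and 992550 in the controls. Rb1, which Cre deleted, was listed at 4 to 6 FPKM in the cancers and at 9 to 10 in the controls (log2 fold change, log2FC, -0.90, adjusted p = 0.0059, limma), and the Trp53 groups overlapped (log2FC -0.08, adjusted p = 0.87). With each library rescaled to the same sum (TPM), Rb1 was at -0.05 (adjusted p = 0.84), where the median log2FC of all genes was 0.81. A value per gene does not read the deleted exons alone. Neuroendocrine markers summed to between 7575 and 16703 FPKM in the cancers and between 120 and 181 in the controls. Pit cell markers summed to between 517 and 46826 in the cancers and between 94213 and 136503 in the controls, and squamous markers to between 0 and 1164 against 1426 to 2442. Cancer 1 stood apart in lymphocyte markers, with a sum of 146 against 2 to 9 in cancers 2 to 5 and 2 to 4 in the control libraries. Cancer 2 stood apart in smooth muscle markers, with a sum of 673 against 21 to 200 in cancers 1, 3, 4 and 5 and 160 to 196 in control tissue. Endothelial markers summed to between 11 and 37 in the cancers and between 4 and 8 in the controls. Cancer 5 stood apart in hepatocyte markers, with a sum of 445 against 1 to 58 in cancers 1 to 4 and 1 in each control.

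With FPKM as deposited, Dnmt1 was the only one of the 10 genes past the threshold, an adjusted p under 0.05 in limma over the 14357 genes tested, and it was higher in the cancers. Uhrf1 and Hells had positive log2FC values of 0.63 and 0.69 whose adjusted p missed the threshold, and the 4 PRC2 genes had log2FC values between -0.16 and 0.26. Tet1 did not reach 1 FPKM in at least 3 samples and was not tested, so 9 of the 10 genes were. The count of 1 gene called higher among 9, or 11.1%, stood beside 16.2% of all genes tested, and the 0 called lower stood beside 18.3%. At an unadjusted p under 0.05, 3 of the 9 genes were higher and 0 lower, beside 22.6% and 25.3% of all genes tested. The share of the 9 genes called higher was thus near the background at the adjusted threshold. The median log2FC was 0.26 over the 9 genes and -0.04 over all genes.

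**Figure D1:**
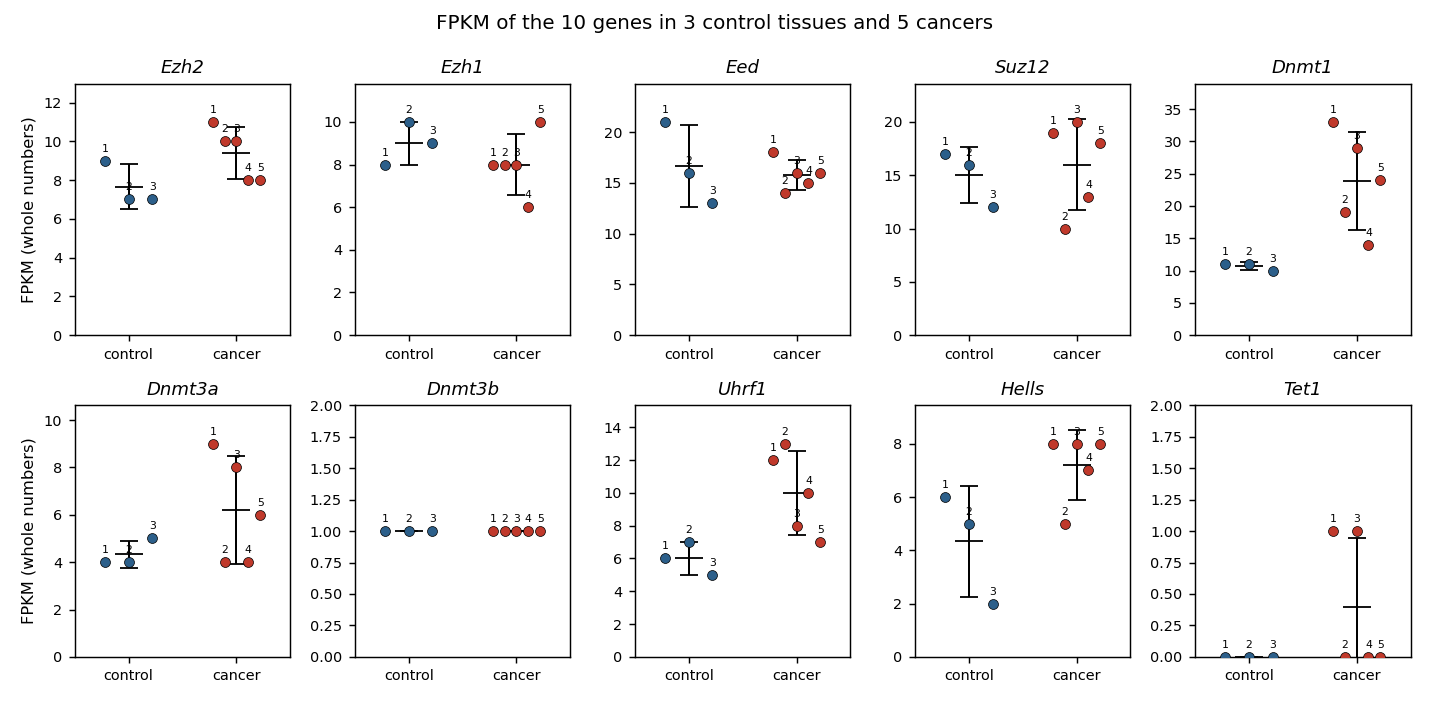
FPKM of the 10 genes in the 3 control tissues (blue) and 5 cancers (red), each on its own vertical axis in whole FPKM that starts at 0, where numbers give the replicate and bars the mean and SD. In Dnmt1 the cancers lie between 14 and 33 FPKM and the controls at 10 and 11, whereas the groups overlap in Ezh2, Ezh1, Eed, Suz12, Dnmt3a, Uhrf1 and Hells.

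In the controls the order of the mean levels, which FPKM allows to be compared between genes, was Eed (16.7), Suz12 (15.0), Dnmt1 (10.7), Ezh1 (9.0), Ezh2 (7.67), Uhrf1 (6.0), Dnmt3a and Hells (4.33 each), Dnmt3b (1.0) and Tet1 (0). Each control was higher in Suz12 than any was in Dnmt1, and higher in Hells than in Dnmt3b, whereas other neighbours in this order met or overlapped down to Hells. In the cancers Dnmt1 ranked highest (23.8), ahead of Suz12 (16) and Eed (15.8), and Uhrf1 (10) stood beside Ezh2 (9.4). The ranges of Dnmt1, Suz12 and Eed overlapped in the cancers, and the lowest Eed value, 14, was above the highest Uhrf1 value, 13. From Uhrf1 through Ezh2, Ezh1 (8.0), Hells (7.2) and Dnmt3a (6.2) each range overlapped the next, and Dnmt3b and Tet1 lay below.

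Among the PRC2 genes, Ezh2 (chr6:47530274-47595030, mm10), the methyltransferase of dividing cells, was at 11, 10, 10, 8 and 8 FPKM in cancers 1 to 5 and at 9, 7 and 7 in controls 1 to 3. The groups overlapped, with cancers 4 and 5 below control 1. The log2FC on the log2(FPKM + 1) scale was 0.26 (standard error 0.16, 95% interval -0.10 to 0.62, adjusted p = 0.21 from limma). Ezh1 (chr11:101191115-101226450), the methyltransferase of resting cells, was at 8, 8, 8, 6 and 10 FPKM in the cancers and at 8, 10 and 9 in the controls. Cancer 4 was the lowest of the 8 samples and the groups overlapped. Its log2FC was -0.16 (standard error 0.17, 95% interval -0.55 to 0.22, adjusted p = 0.46).

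The scaffold subunits were close in the means of both groups. Eed (chr7:89954654-89980976), which binds the methylated histone tail, was at 18, 14, 16, 15 and 16 FPKM in the cancers and at 21, 16 and 13 in the controls. The controls spanned the whole range of the cancers. The log2FC of Eed was -0.05 (95% interval -0.44 to 0.33, adjusted p = 0.83), and it was 0.12 without control 1. Suz12 (chr11:79993106-80034123), which holds the complex together, was at 19, 10, 20, 13 and 18 FPKM in the cancers and at 17, 16 and 12 in the controls. Cancer 2 was the lowest sample and cancer 3 the highest. Suz12 had a log2FC of 0.06 (95% interval -0.51 to 0.63, adjusted p = 0.87), which was -0.01 without cancer 1, -0.03 without cancer 3, -0.08 without control 3 and -0.10 without cancers 1 and 5. The intervals of these 4 genes did not reach a log2FC of 1 in either direction.

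Of the DNA methyltransferases, Dnmt1 (chr9:20907206-20959888), the maintenance enzyme, was at 33, 19, 29, 14 and 24 FPKM in the cancers (23.8 ± 7.60, SD, n = 5) and at 11, 11 and 10 in the controls (10.7 ± 0.577, SD, n = 3). Every cancer was above every control, as in 14.4% of all genes tested (no member had every cancer below every control, as in 19.8%), and the cancers varied more than the controls. The log2FC was 1.03 (standard error 0.26, 95% interval 0.42 to 1.64, adjusted p = 0.022 from limma), or 2.04-fold. The two-sided exact permutation test gave p = 0.0357, without adjustment over the 10 genes. The call did not hold without cancer 3 or any control, with an adjusted p of 0.051 without cancer 3 (log2FC 0.95) and of 0.069, 0.066 and 0.075 without controls 1, 2 and 3 (1.05, 1.05 and 0.99). Without cancers 1 and 5, the libraries with lymphocyte and hepatocyte genes, it was 0.076 (log2FC 0.84).

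The de novo enzymes were lower than Dnmt1 in each library. Dnmt3a (chr12:3806980-3914443) was at 9, 4, 8, 4 and 6 FPKM in the cancers and at 4, 4 and 5 in the controls. Cancers 1, 3 and 5 were above every control, whereas cancers 2 and 4 were level with the lowest control. The log2FC was 0.38 (standard error 0.27, 95% interval -0.25 to 1.01, adjusted p = 0.29), and with array weights, which give libraries unequal weight, it was 0.59 (adjusted p = 0.030). It was 0.25 without cancer 1 (adjusted p = 0.47) and 0.20 without cancers 1 and 5 (adjusted p = 0.61). Dnmt3b (chr2:153649449-153687730), most active in the early embryo, was listed at 1 FPKM in each of the 8 libraries, a level at which rounding to whole numbers hides most differences.

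Cancers 2 and 4 had the lowest Dnmt1, Dnmt3a, Suz12, Eed and Hells of the 5 cancers, and these were also the cancers with the most parietal and pit cell RNA. Markers of the acid-secreting parietal cell summed to 973 and 2146 FPKM in cancers 2 and 4 and to 0, 172 and 108 in cancers 1, 3 and 5, against 3971 to 7343 in the controls. Pit cell markers summed to 46826 and 25680 in cancers 2 and 4 and to 517, 3263 and 10781 in cancers 1, 3 and 5. Ezh2 and Uhrf1 did not follow this order, since cancer 2 had 10 and 13 FPKM of them. Macrophage markers summed to 27, 15, 26, 9 and 19 in cancers 1 to 5, the same order as Dnmt1, and to 8 in each control. The part of parietal, pit cell and macrophage RNA in these levels was not tested.

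Among the cofactors of DNA methylation, Uhrf1 (chr17:56303337-56323486), which reads hemimethylated DNA, was at 12, 13, 8, 10 and 7 FPKM in the cancers (10 ± 2.55, SD, n = 5) and at 6, 7 and 5 in the controls (6.0 ± 1.0, SD, n = 3). The groups met at 7, where cancer 5 equalled control 2. The log2FC was 0.63 (standard error 0.22, 95% interval 0.12 to 1.14, adjusted p = 0.057 from limma), or 1.55-fold, with an unadjusted p = 0.0536 in the two-sided exact permutation test. It passed the threshold without cancer 5 (log2FC 0.74, adjusted p = 0.033) and with median-ratio scaling of the libraries (0.72, adjusted p = 0.042).

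Hells (chr19:38930990-38968277), the remodeler, was at 8, 5, 8, 7 and 8 FPKM in the cancers and at 6, 5 and 2 in the controls. In 4 of the 5 cancers it was above every control, and cancer 2 equalled control 2. The log2FC was 0.69 (standard error 0.29, 95% interval 0.01 to 1.38, adjusted p = 0.10), or 1.62-fold, with an unadjusted p = 0.0536 in the two-sided exact permutation test. Without control 3, the lowest sample, the log2FC of Hells was 0.32 (adjusted p = 0.28). Tet1 (chr10:62804570-62880014), the methylcytosine oxidase, was listed at 1 FPKM in cancers 1 and 3 and at 0 in the other 6 libraries.

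The scale of the libraries decided how many of these genes were called. With median-ratio scaling the size factors of the libraries were 0.978 to 0.998 in the cancers and 1.05 to 1.07 in the controls. When each library was rescaled to the same sum (TPM), the median log2FC of all genes moved from -0.04 to 0.81, and 50.0% of genes were called higher and 3.68% lower. With TPM 8 of the 9 genes were called higher, with Dnmt1 at 1.98, Hells at 1.59, Uhrf1 at 1.54, Dnmt3a at 1.26, Ezh2 at 1.17, Suz12 at 0.996, Eed at 0.88 and Ezh1 at 0.74 on the log2 scale, so that Eed and Ezh1 changed sign. Relative to the shift of all genes, Dnmt1 was at 1.17, Hells at 0.78, Uhrf1 at 0.73, Dnmt3a at 0.45, Ezh2 at 0.36, Suz12 at 0.19, Eed at 0.07, Ezh1 at -0.07 and Dnmt3b at -0.22.

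**Figure D2:**
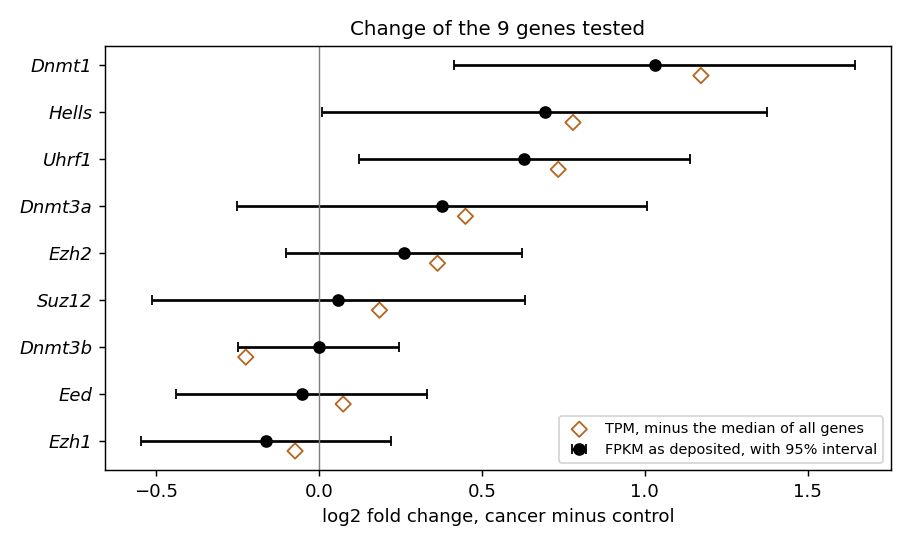
Log2FC, cancer minus control, of the 9 genes tested, as black points with 95% intervals from limma on FPKM as deposited, and as open diamonds from TPM after subtraction of the median of all genes. On both scales Dnmt1 has the largest value of the 9 (1.03 and 1.17), Hells and Uhrf1 follow, and the intervals of Ezh2, Suz12, Eed, Ezh1, Dnmt3a and Dnmt3b include 0.

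Ratios between members within a library change little with its scaling. The ratio of Dnmt1 to Dnmt3a, as log2 of (Dnmt1 + 1) over (Dnmt3a + 1), was 1.77, 2.0, 1.74, 1.58 and 1.84 in the cancers (1.78 ± 0.151, SD, n = 5) against 1.26, 1.26 and 0.874 in the controls (1.13 ± 0.224, SD, n = 3). Every cancer was above every control. The difference was 0.651, or 1.57-fold, with p = 0.018 in a two-sided exact permutation test, the smallest p that 5 against 3 samples allow, and p = 0.071 after adjustment over the 4 ratios compared. Without cancers 1 and 5 the difference was 0.64, with an exact permutation p = 0.10, the smallest that 3 against 3 samples allow.

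The ratio of Ezh2 to Ezh1, the dividing-cell over the resting-cell enzyme, was 0.415, 0.29, 0.29, 0.363 and -0.29 on the log2 scale in the cancers against 0.152, -0.459 and -0.322 in the controls. In 4 of the 5 cancers it was above every control, and cancer 5 lay among the controls. The difference was 0.423, or 1.34-fold (two-sided exact permutation test, p = 0.089, adjusted p = 0.18), and it was 0.549 without cancer 5 (p = 0.029) and 0.604 without control 1 (p = 0.048), both before adjustment. The ratio of Ezh2 to Suz12 differed by 0.202 (exact p = 0.57, adjusted p = 0.57), and that of Uhrf1 to Dnmt1 by -0.40 (exact p = 0.36, adjusted p = 0.48), with overlap of the groups in both. For Uhrf1 over Dnmt1 the cancers fell on either side of the controls, with -0.515 and -0.447 in cancers 2 and 4 and -1.39, -1.74 and -1.64 in cancers 1, 3 and 5, against -0.874 to -0.585 in the controls.

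**Figure D3:**
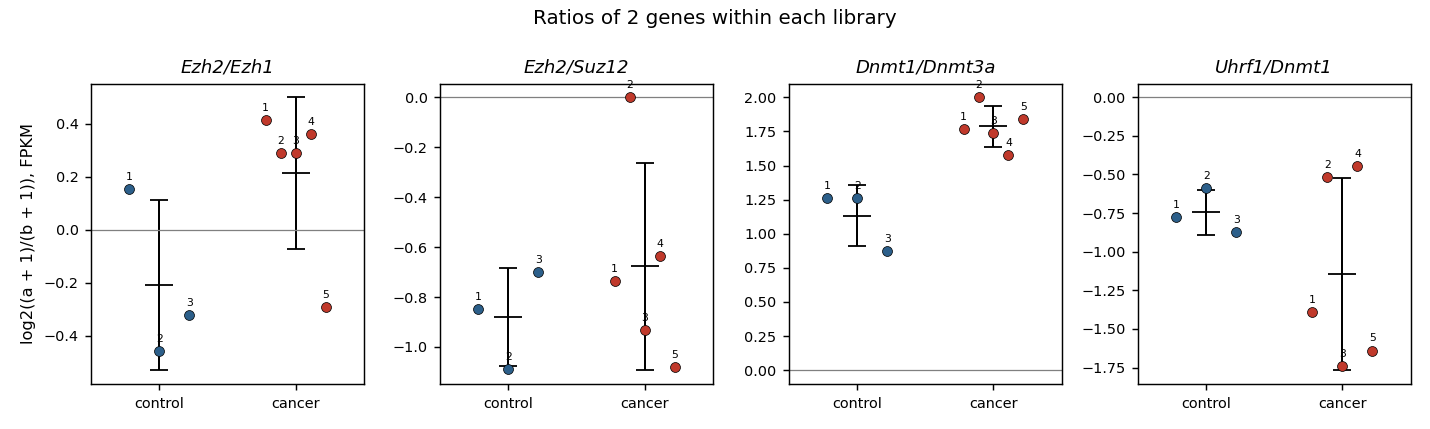
Log2 ratios of 2 genes within each library, log2((a + 1)/(b + 1)) of FPKM, in 3 controls (blue) and 5 cancers (red), where numbers give the replicate and bars the mean and SD. The Dnmt1/Dnmt3a ratio is between 1.58 and 2.0 in the cancers and at most 1.26 in the controls, and cancer 5 lies below the other cancers in Ezh2/Ezh1 at -0.29.

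The 10 genes were set beside genes of cycling cells because several are made mainly in S phase. Of 16 proliferation genes 9 rose (56.2%), 7 did not pass the test and 0 fell, with a median log2FC of 0.99. Among all genes tested, 16.2% were called higher and 18.3% lower. At an unadjusted p under 0.05, 13 of the 16 were higher and 0 lower, beside 22.6% and 25.3% of all genes. The S phase genes Mcm2, a subunit of the replicative helicase (40, 23, 29, 18 and 23 FPKM in the cancers against 7, 9 and 8, log2FC 1.57, adjusted p = 0.0040), and Pcna, the replication clamp (199, 194, 223, 157 and 123 against 107, 92 and 88, log2FC 0.87, adjusted p = 0.018), passed the test. Cdk1, the mitotic kinase, and Ccnb1, its cyclin, rose by 1.46 and 1.43 on the log2 scale (adjusted p = 0.014 and 0.027). The calls of Pcna and Cdk1 were lost without control 2 or control 3 (Pcna adjusted p = 0.067 and 0.068), and that of Ccnb1 also without cancer 3. Without cancers 1 and 5 the adjusted p of Cdk1 was 0.051 and that of Ccnb1 0.10. Mki67, the Ki-67 gene, had 25, 13, 20, 11 and 11 FPKM in the cancers against 10, 7 and 7 (log2FC 0.86, adjusted p = 0.057). Top2a, a topoisomerase of dividing cells, had 44, 21, 32, 15 and 22 against 18, 10 and 7 (adjusted p = 0.056). Plk1, a mitotic kinase, was at 15, 21, 15, 12 and 11 against 16, 12 and 16 (log2FC -0.01, adjusted p = 0.98), Birc5 had a log2FC of 0.25 (adjusted p = 0.65) and Rrm2 one of 0.56 (adjusted p = 0.29).

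Relative to the mean of the proliferation genes in the same library, on the log2 scale, Dnmt1 kept its place, with 0.108, -0.33, 0.0973, -0.251 and 0.491 in the cancers against -0.267, 0.0901 and 0.0552 in the controls, a difference of 0.0637 between the means. Ezh2 was lower relative to these genes in every cancer, at -1.39, -1.19, -1.35, -0.988 and -0.983, than in the controls, at -0.53, -0.495 and -0.404. Eed, Suz12 and Ezh1 differed in the same direction, by -1.02, -0.907 and -1.13, and Dnmt3a, Uhrf1 and Hells by -0.588, -0.337 and -0.273. The proliferation mean itself was 4.15 to 4.98 in the cancers and 3.4 to 3.85 in the controls, so an unchanged gene falls relative to it. Dnmt3b, at 1 FPKM in all 8 libraries, differed by -0.967, and Tet1 by -0.567. These relative levels are a description without a test, since the list of proliferation genes differed between the groups.

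**Figure D4:**
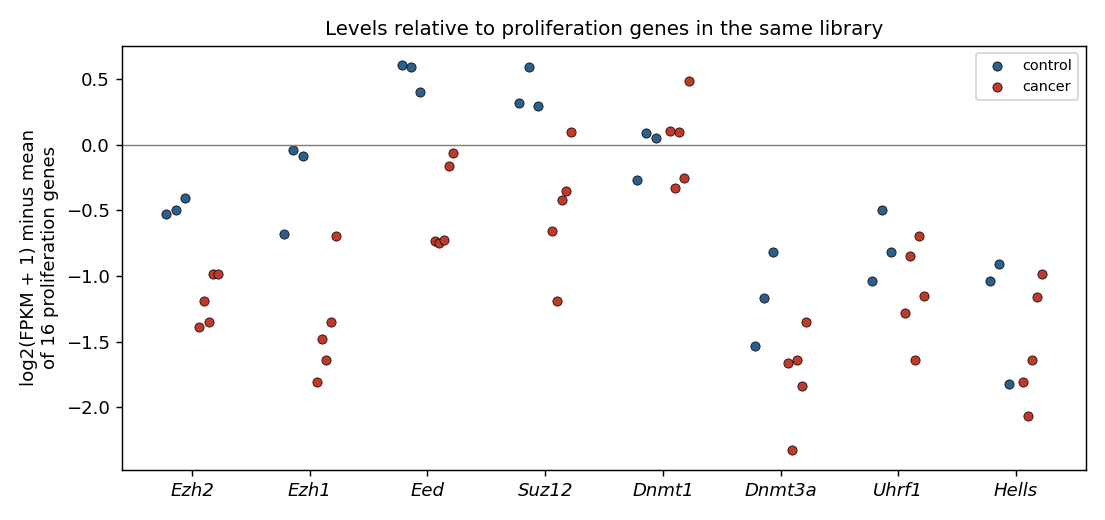
Log2(FPKM + 1) of 8 of the genes minus the mean log2(FPKM + 1) of 16 proliferation genes in the same library, with 1 point for each of the 3 controls (blue) and 5 cancers (red). Ezh2 lies between -1.39 and -0.983 in the cancers and between -0.53 and -0.404 in the controls, whereas the Dnmt1 points of both groups lie around 0. Dnmt3b, unchanged at 1 FPKM and not drawn, differs by -0.967 because the proliferation mean is higher in the cancers.

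Of the 8 partner genes of PRC2, 3 rose, 1 fell and 4 did not pass the test, with a median log2FC of 0.60. The shares called higher and lower were 37.5% and 12.5%, beside 16.2% and 18.3% of all genes tested. The histone chaperones Rbbp7 (175, 116, 183, 106 and 144 FPKM in the cancers against 75, 60 and 47, log2FC 1.23, adjusted p = 0.0086) and Rbbp4 (52, 43, 48, 34 and 44 against 28, 26 and 27, log2FC 0.68, adjusted p = 0.013), which also serve other chromatin complexes, were above every control in every cancer. Phf1, a Polycomb-like subunit that binds methylated histone H3, was at 23, 10, 25, 10 and 17 FPKM against 5, 6 and 9 (log2FC 1.17, adjusted p = 0.039). Epop, which links PRC2 to elongin and is listed under the older symbol E130012A19Rik, was at 0, 4, 1, 3 and 4 FPKM in the cancers and at 16, 8 and 15 in the controls (log2FC -2.22, adjusted p = 0.022). The calls of Rbbp4, Phf1 and Epop did not hold when single libraries were left out (for Rbbp4, control 2), and with TPM Epop was at -1.69 (adjusted p = 0.068).

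Of 21 subunits of PRC1, the complex that binds the PRC2 mark and ubiquitinates histone H2A, 3 rose, 1 fell and 17 did not pass the test, with a median log2FC of 0.18. These shares, 14.3% higher and 4.76% lower, stood beside 16.2% and 18.3% of all genes tested. Cbx6 was at 38, 24, 35, 18 and 24 FPKM in the cancers and at 3, 5 and 6 in the controls (log2FC 2.33, standard error 0.29, adjusted p = 0.0019), or 5.04-fold higher. Cbx7 was at 13, 11, 15, 10 and 7 against 2, 3 and 5 (log2FC 1.51, adjusted p = 0.0081). Both encode chromobox proteins that read H3K27 methylation, and in both every cancer was above every control. Pcgf2 (MEL18), a ring finger subunit, was at 7, 7, 10, 9 and 9 against 5, 4 and 5 (log2FC 0.72, adjusted p = 0.013), a call that was lost without control 2. Pcgf3, a ring finger subunit of a variant PRC1, was at 10, 11, 8, 7 and 13 FPKM in the cancers and at 53, 34 and 32 in the controls (log2FC -1.91, adjusted p = 0.0020), and it was also lower with TPM (-0.999, adjusted p = 0.021). Of 6 genes that oppose Polycomb, the H3K27 demethylases and H2A deubiquitinase genes, 5 were tested and 0 were called in limma, beside the same 16.2% and 18.3%. At an unadjusted p under 0.05 there were also 0, beside 22.6% higher and 25.3% lower of all genes tested. The median log2FC of the 5 was -0.12. With TPM 2 of the 5 were called higher, when 50.0% of all genes were.

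Of 13 partners and readers of DNA methylation, 12 were tested, of which 2 rose and 1 fell (16.7% and 8.33%, beside 16.2% and 18.3% of all genes tested), with a median log2FC of 0.12. Cdca7, which recruits Hells to chromatin, was at 8, 13, 8, 8 and 7 FPKM in the cancers and at 5, 4 and 4 in the controls (log2FC 0.85, adjusted p = 0.017). Its paralog Cdca7l was at 8, 7, 10, 6 and 5 against 5, 4 and 3 (log2FC 0.70, adjusted p = 0.049). Dnmt3l, the inactive partner of the de novo enzymes, was at 0, 0, 0, 1 and 0 against 1 in each control (adjusted p = 0.045), a difference of a single rounding step. The calls of Cdca7l and Dnmt3l were lost in most alternatives, and that of Cdca7 without control 2 or control 3.

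Of 5 genes of DNA demethylation, 1 rose and 1 fell (1 of 5 each, beside 16.2% and 18.3% of all genes tested), with a median log2FC of -0.47. At an unadjusted p under 0.05, 1 of the 5 was higher and 3 were lower, beside 22.6% and 25.3% of all genes. Tet3, a methylcytosine oxidase, was at 4, 4, 3, 4 and 5 FPKM in the cancers and at 7, 7 and 10 in the controls (log2FC -0.84, adjusted p = 0.012). With TPM it was at -0.02 (adjusted p = 0.96), where the median of all genes was 0.81. Mbd4, a repair glycosylase, was at 4, 2, 3, 2 and 2 against 1 in each control (log2FC 0.82, adjusted p = 0.021), a call that was lost without any 1 of the controls. Of 11 genes of H3K9 heterochromatin, 2 rose and 1 fell (18.2% and 9.09%, beside 16.2% and 18.3% of all genes tested), with a median log2FC of 0.34. Suv39h1, an H3K9 methyltransferase, was at 9, 7, 9, 7 and 12 FPKM in the cancers and at 3 in each control (log2FC 1.27, standard error 0.18, adjusted p = 0.0032). Cbx3, the HP1 gamma gene, whose reads can be shared with processed copies in the genome, was at 98, 71, 101, 81 and 73 against 49, 42 and 37 (log2FC 0.97, adjusted p = 0.0060). Ehmt1, the G9a partner, was at 8, 7, 7, 7 and 9 against 11, 11 and 10 (log2FC -0.44, adjusted p = 0.032). With TPM its sign reversed (0.45), but it stayed below the median of all genes, 0.81.

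**Figure D5:**
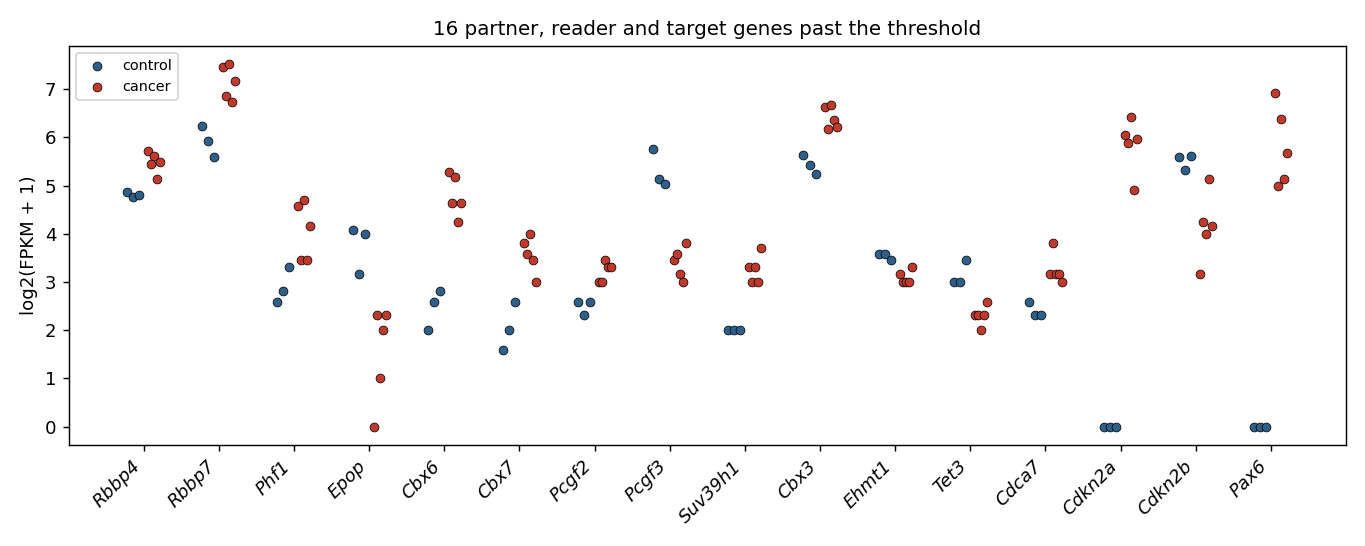
Log2(FPKM + 1) of 16 partner, reader and target genes past the threshold, with 1 point for each of the 3 controls (blue) and 5 cancers (red). Cbx6 shows a log2FC of 2.33 and Pcgf3 one of -1.91, and Cdkn2a and Pax6 are at 0 in the 3 controls and entered the test only through the cancers.

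Of 14 loci known as Polycomb targets in other tissues, 11 were listed at 0 in all 8 libraries, among them Hoxa9, Hoxd10, Pax2 and Wt1. A listed 0 can be a failed estimate, since the chief cell gene Pgc was listed at 28832 FPKM in control 1 and at 0 in controls 2 and 3. Cdkn2a was at 65, 58, 85, 29 and 62 FPKM in the cancers and listed at 0 in the 3 controls, where values per gene do not separate its products p16 and Arf. Cdkn2a was called higher, but it passed the filter of 1 FPKM in 3 samples only through the cancers, so no p-value is given. Its neighbour Cdkn2b, the p15 gene, was at 8, 18, 15, 34 and 17 against 47, 39 and 48 (log2FC -1.36, adjusted p = 0.029), so that every cancer was lower than every control. The call of Cdkn2b was lost without cancer 3, cancer 5 or any control. With TPM Cdkn2b was at -0.43 (adjusted p = 0.25), where the median of all genes was 0.81. Pax6, a regulator of endocrine and eye development, was at 121, 31, 82, 34 and 50 FPKM in the cancers and listed at 0 in the controls. Like Cdkn2a, Pax6 was called higher but passed the filter only through the cancers, so no p-value is given. All 5 neuroendocrine markers were also higher in the cancers. The part of that cell type in the Pax6 level was not tested.

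Of 14 germline genes that DNA methylation silences in somatic tissue, 11 were listed at 0 in all 8 libraries, among them Dazl, Ddx4 and Mael. Asz1, Sycp3 and Brdt were tested. Brdt, a testis bromodomain gene, was at 1, 1, 2, 1 and 2 FPKM in the cancers and at 1, 0 and 0 in the controls (adjusted p = 0.047), a call made at the limit of the rounding that was lost in most alternatives.

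For each of the 10 genes the most similar profiles were sought among the tested genes with a mean of at least 5 FPKM (9125, or 9126 for Dnmt3b and Tet1), by the root mean square difference of centred log2(FPKM + 1) values over the 8 samples. Among the nearest to Dnmt1 were Golim4 (0.138) and Golt1b (0.141), and nearest to Uhrf1 were Xrcc6 (0.169), Nme3 (0.175) and Aaas (0.179). Cenpq (0.11), Sh3bgrl (0.144) and Gnpda2 (0.159) were nearest to Hells. The PRC2 genes, which varied less, had closer neighbours. These were Cactin (0.061), Emc8 (0.0709) and Cnot8 (0.075) for Ezh2, Trappc9 (0.0842), Zfp828 (0.0901) and Smarcc1 (0.0954) for Ezh1, Clp1 (0.0425), Hnrnpm (0.0632) and Zfp655 (0.0669) for Eed, and Pcm1 (0.0726), Zbtb11 (0.0746) and Msantd4 (0.0886) for Suz12. For Dnmt3a they were Cog6 (0.107), Tspan2 (0.11) and Stxbp5 (0.117), for Dnmt3b Ash2l (0.046), Mettl9 (0.0538) and Zbtb9 (0.0735), and for Tet1 Tshz1 (0.126), Tmem39a (0.144) and Nab2 (0.15). None of the 10 genes was among the nearest of another, and a small difference is common for genes that vary little between samples.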

How the data were processed

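RNA of 5 cancers and 3 control tissues was sequenced from directional, poly(A)-selected libraries. Per the labels and the submitters' processing notes, reads were handled with cutadapt 1.8, TopHat2 2.0.13 and Cuffnorm 2.2.1 on mm10, and the authors deposited FPKM for 23361 genes in 8 columns. All deposited values are whole numbers, so these FPKM rounded by the authors were handled as a score, not as counts of reads. The strand setting and the normalization option are not given in the sources used here.

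The 14357 genes that reached 1 FPKM in 3 or more samples entered a limma 3.58.1 fit (R 4.3.3, lmFit and eBayes with trend) on log2(FPKM + 1), and p-values adjusted by Benjamini-Hochberg were called under 0.05. The fit was tested on simulated data with log2 changes of 3 in genes with a mean of at least 8 FPKM. This says nothing of changes as small as those of the 10 genes. Depth is unknown, and no counting intervals are given. Ratios of 2 genes and single genes were compared by two-sided exact permutation tests over the 56 splits of 8 samples into 5 and 3. Of 160 list entries all 160 were found, Epop and Adgre1 under older symbols by Entrez ID. The 10 genes, the lists and the naming rule were chosen with earlier results of these data known. All 10 genes were described. In each partner list up to 3 genes per direction with the largest change past the threshold were named, and likewise up to 4 target and germline genes, the proliferation genes Mki67, Top2a, Pcna and Mcm2, and the 3 nearest profiles, of which 1 is not reported here. Target and germline genes listed at 0, Pgc and the proliferation genes Plk1, Birc5 and Rrm2 were named after their values were seen. File starts count from 0, and 1 was added. Promoter sequences came from RefSeq (GRCm38.p6) and matched all 10 genes. The alternatives were other pseudocounts (0.1 and 0.5), no filter, a mean FPKM of at least 5, TPM, median-ratio and quantile scaling, no trend, array weights, a replicate block and leaving out each sample in turn.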

Additional observations from a re-analysis of the deposited data

Results flagged for a closer look

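In 3 of 42 results tested, 1 cancer stood apart from the other 4, where chance gives about 1 in 20, or 2.1 results. The measure is the gap to the nearest sample over the whole range of the group, with a critical value of 0.71 for 5 samples. Cdca7, the Hells recruiter, had a gap of 0.79 because cancer 2 was at 13 FPKM and the other cancers at 7 or 8. Dnmt3l, the inactive partner of the de novo enzymes, had a gap of 1.0 because it was listed at 1 FPKM in cancer 4 and at 0 in the others, the smallest step that the rounding allows. The Ezh2/Ezh1 ratio had a gap of 0.822 because cancer 5, which held hepatocyte genes with a summed level of 445 FPKM, was at -0.29 on the log2 scale and the other cancers at 0.29 to 0.415. The part of hepatocyte RNA in that ratio was not tested.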

How the results depend on the processing

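Rounding to whole FPKM, 3 controls and the scale of the libraries limit these results. Of 170 repeats of the fold changes of the 9 genes tested, 147 kept their side of the threshold without a reversal. A further 8 passed it newly in the same direction, 6 fell short and 9 reversed, of which Ezh1 and Eed with TPM also passed it. The 147 include the repeats of Dnmt3b, whose log2FC of 0 has no direction. It was at 0.59 with TPM and at -0.37 with quantile normalization. TPM gave 7176 genes higher, 528 lower and 7704 in either direction in place of 2326, 2622 and 4948. Array weights gave 3909, 4239 and 8148, a replicate block 982, 552 and 1534, and a mean FPKM of at least 5 gave 1244 higher. Leaving out 1 sample gave 1369 to 2466 higher, 1121 to 2786 lower and 2490 to 5252 in all. In place of 1 of the 10 genes called higher there were 8 with TPM, 2 with median-ratio scaling or array weights, 0 with the block or without cancers 1 and 5 (chosen after seeing the data), and 0 to 2 without 1 sample. In place of 14 partner and target genes higher and 6 lower there were 44 and 1 with TPM, 25 and 10 with array weights, 5 and 2 with the block, and 7 to 15 and 2 to 6 without 1 sample. The log2 fold changes with TPM were 1.17 (Ezh2), 0.74 (Ezh1), 0.88 (Eed), 0.996 (Suz12), 1.26 (Dnmt3a), 1.54 (Uhrf1), 1.59 (Hells), 0.86 (Trp53) and 0.45 (Ehmt1), of which Ezh1, Eed, Trp53 and Ehmt1 reversed. The median of all genes with TPM was 0.81. Median-ratio and quantile scaling reversed Eed (0.046 and 0.18) and Trp53 (0.021 and 0.13), and median-ratio scaling gave Uhrf1 0.72, past the threshold. Array weights gave Dnmt3a 0.59, past the threshold. Without cancers 1 and 5 Dnmt1 was at 0.84 and fell short, Suz12 at -0.10 and Trp53 at 0.20 reversed, and the Dnmt1/Dnmt3a ratio differed by 0.64. Without 1 sample Eed ranged from -0.21 to 0.12, Suz12 from -0.083 to 0.21, Trp53 from -0.29 to 0.027, Dnmt1 from 0.90 to 1.20, Dnmt3a from 0.25 to 0.50, Uhrf1 from 0.52 to 0.74, Hells from 0.32 to 0.93 and the Ezh2/Ezh1 ratio from 0.298 to 0.604. Apart from the settings built on fewer samples, the cause was not tested. Replicate numbers did not pair the samples: deviations of samples with the same number correlated at -0.0211, -0.194 and -0.104. With the replicate block Dnmt1 was at 1.23 (adjusted p = 0.065). Only cancers 1 to 3 share a replicate number with a control. The block estimates therefore rest on these cancers and the 3 controls, and cannot be compared in size with those from all samples. Of 529 repeats for other named genes, 418 kept their call and direction, 92 fell short, 11 passed newly in the same direction and 8 reversed.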
